A study of Glycine max with 20 samples.

Results

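The extended hilum region of the soybean seed coat was followed in the standard isoline UC7 between 2 stages of seed growth, EH50 and EH25. The stages are set by the fresh weight of the whole seed, 50 to 100 mg for EH50 and 25 to 50 mg for EH25 by the sample names, although the growth protocol of the labels ends its last range at 75 mg, so the upper limit of EH50 is uncertain. The extended hilum region (EH) is the hilum dissected with the seed coat tissue next to it. UC7 is the line Clark 63 with the genotype i-i R T Mi g, whose seeds have a black hilum on a yellow seed coat. Each stage had 2 RNA-Seq libraries of UC7, so 4 of the 20 libraries of the series were compared, and they were found by the isoline, tissue and stage in their labels. UC413, the isoline with a minute hilum, has the genotype i-i R t mi G after 6 backcrosses of the mi allele into Clark 63. It had 2 libraries at each of the same stages and is used here to show where UC7 differs. Its EH10, EH25 and EH50 libraries also entered the statistical fit that gives the p-values of UC7. UC413 differs from UC7 at T and G as well as at Mi, so these loci cannot be told apart in it. Another 2 libraries of UC7 came from EH10 (10 to 25 mg), and single libraries of each isoline covered EH100 (100 to 200 mg) and the whole seed coat (WS) at WS10, WS25 and WS50. All plants were untreated and grown in a greenhouse, and the replicates of a group are described as independent, without saying whether they came from separate plants, so the p-values measure the spread between these libraries. Every library is bulk tissue, in which a change in the number of cells of a type and a change in RNA per cell cannot be told apart.

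The hilum is the scar where the seed was joined to the funiculus, the stalk that brings water, sugars and amino acids from the mother plant. In legume seeds a bar of lignified tracheids, dead water-conducting cells, lies under the hilum, and the vascular bundle that enters there feeds the seed coat. Tracheids and vessels get their strength from a secondary wall of cellulose, xylan and lignin and then digest their own contents. The cells of the seed coat also make flavonoids, among them anthocyanins and proanthocyanidins, which give dark hila their colour, and the outer cells carry a cuticle of cutin and wax.

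Expression is given as scaled RPKM, the deposited reads per length of the gene model and per total of alignments, divided by a size factor that sets the median ratio between libraries to 1. Gene names such as XCP2 type refer to the best Arabidopsis hit in the deposited annotation, and the roles given are those known from Arabidopsis unless stated otherwise. The digits before the G of a Glyma identifier give the chromosome of the Wm82.a2 genome, and positions on the chromosome were not used here. The 4 libraries held 93354715 and 119338451 alignments at EH50, against 102086153 and 109704266 at EH25, which puts the level that 3 alignments give on a model of 1 kb at 0.0282 to 0.0315 scaled RPKM. A read counts at every model that it aligns to, so near-identical copies share reads, and such limits cover counting error only. Only EH50 replicate 1 came from a kit that does not keep the strand, so in that library overlapping and antisense genes cannot be told apart. EH25 replicate 1 stood apart from its partner. The replicates had a Pearson correlation across models of 0.977 at EH50 and 0.907 at EH25, the lowest of the 6 groups of 2 libraries (models are not independent replicates). EH25 replicate 1 was at least 4-fold above replicate 2 in 343 genes and the reverse held in 8 genes, and at EH50 the numbers were 2 and 32. Markers of the embryo and cotyledon summed to 178 and 136 scaled RPKM over 47 genes at EH50, against 170.8 and 66.2 at EH25, with 4 of the 47 genes listed at 0 in all 4 libraries. Endosperm markers summed to 0.711 and 1.25 over 36 genes at EH50, against 1.70 and 0.716 at EH25, and 33 of the 36 stayed under 0.1 in all 4 libraries.

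Of the gene lists described here, xylem markers were higher at EH50 than at EH25 in the UC7 hilum region, with 7 of 19 tested genes that rose. Genes of flavonoid synthesis and of cutin, suberin and wax synthesis were in part lower, with 6 of 38 and 7 of 40 tested genes that fell. The levels were compared with limma on log2 values in a fit with all 12 libraries of EH10, EH25 and EH50, in which a gene model was called higher or lower at an adjusted p under 0.05. Of 28658 genes tested, with the splice form of highest level for each, 157 (0.548%) were called higher at EH50 and 255 (0.89%) lower. Because EH50 replicate 1 had its own kit, a called gene is described as one that rose or fell where both EH50 libraries lay beyond both EH25 libraries and EH50 replicate 2 alone lay at least 2-fold from the mean of EH25. Counted by splice form, 244 of 52426 models (0.465%) were called higher and 422 (0.805%) lower. By the 2-fold rule 99 genes (0.345% of those tested) rose and 211 genes (0.736%) fell. The nearest genes just outside the 2-fold limit differed by 0.991 and -0.9975 on the log2 scale in replicate 2 alone, and the nearest inside by 1.005 and -1.002. Groups that merely did not overlap were common, with 6606 genes (23.1%) higher and 5696 (19.9%) lower at EH50.

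The 99 genes that rose had log2 fold changes of 0.92 to 2.83 with a median of 1.44, and the 211 that fell had -4.39 to -0.99 with a median of -1.68, while the median over all genes tested was 0.016. The medians were 1.53 in EH50 replicate 1 and 1.32 in replicate 2 for the genes that rose, and -1.74 and -1.63 for those that fell. The rule asks for a change in each EH50 library, so this likeness is in part set by it. It left out 102 called genes that fell short of 2-fold in replicate 2 alone. Replicate 1 lay further from EH25 than replicate 2 in 75 of the 99 genes and in 124 of the 211. Of the genes that rose, 26 stayed under 1 scaled RPKM in both EH25 libraries, and of those that fell, 107 stayed under 1 in both EH50 libraries, so these passed the filter on low values (1 or more in at least 2 of the 4 libraries) only through the stage at which they were high. The same holds for every tested gene below whose values in both UC7 libraries of EH25, or of EH50, are under 1. Many shared their best Arabidopsis hit with another gene that moved the same way. This held for 41 of the genes that rose, over 18 hits, and for 90 of those that fell, over 40 hits. The calls needed both EH50 libraries. When EH50 replicate 1 was left out, 0 of the 99 and 12 of the 211 were still called, without EH50 replicate 2 the numbers were 7 and 40, and with the kit as a covariate 4 and 51 were, although all 310 kept their direction. Without EH25 replicate 1, the library that stood apart, 63.6% of the 99 and 79.1% of the 211 were still called.

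**Figure D1:**
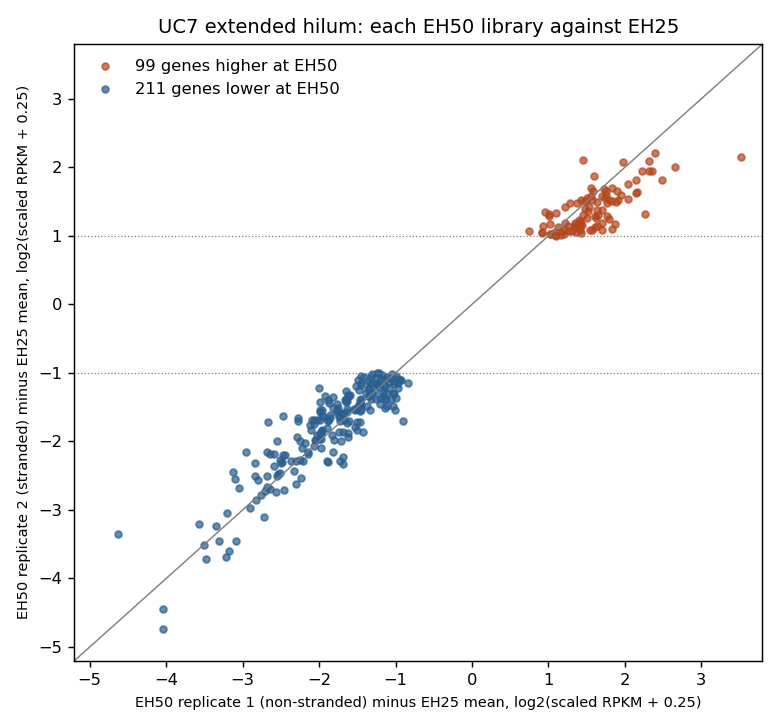
Difference of each EH50 library of UC7 from the mean of the 2 EH25 libraries, on the log2(scaled RPKM + 0.25) scale, with the non-stranded replicate 1 on the x axis and the stranded replicate 2 on the y axis. Each point is 1 of the 99 genes that rose or the 211 that fell, and dotted lines mark the 2-fold limit set on replicate 2. The points lie along the diagonal of equal change, which is in part set by the rule that chose the genes.

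Genes of xylem differentiation were higher at EH50. The list of xylem markers holds 55 genes, of which 36 were too low to be tested. Of the 19 tested, 7 rose and none was called lower, and the median log2 fold change was 1.03. All 19 were higher in both EH50 libraries than in both EH25 libraries, although 4 of them passed the filter only through EH50. The summed level of the 55 markers was 614 and 563 scaled RPKM at EH50, against 309 and 256 at EH25. In the other extended hilum libraries of UC7 the sum was 103 and 123 at EH10 and 327 at EH100. Most of the sum at EH50 and EH25 came from 8 cellulose synthases of the secondary wall, none of them called. They summed to 503.5 and 461.6 scaled RPKM at EH50, against 272.9 and 221.6 at EH25.

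The 4 XCP2-type genes, papain-type peptidases that digest the contents of xylem cells as they die, were among the 7 that rose. Glyma.04G014800.1 had 36.6 and 33.8 scaled RPKM at EH50, against 11.5 and 10.6 at EH25 (log2 fold change 1.64 ± 0.25 (SE), adjusted p = 0.0178). Its neighbour Glyma.04G014700.1 had 16.5 and 13.6 scaled RPKM at EH50, against 4.97 and 4.43 at EH25 (1.62 ± 0.25 (SE), adjusted p = 0.0178). The chromosome 6 copies Glyma.06G014800.1 and Glyma.06G014700.1 had log2 fold changes of 1.54 and 1.48. Reads that fit several of these copies count in each, so their levels are not 4 separate measurements. An XCP1-type gene, Glyma.15G083400.1, did not pass the filter, with 0.325 and 0.4 scaled RPKM at EH50, against 0.68 and 1.19 at EH25. Outside the list, the XSP1-type subtilase Glyma.09G266000.1, a serine peptidase of xylem, had 5.45 and 5.51 scaled RPKM at EH50, against 1.47 and 1.92 at EH25 (1.57 ± 0.26 (SE), adjusted p = 0.0235).

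Laccases, copper oxidases that polymerise lignin, gave the other 3 markers that rose. The 3 LAC4-type genes were Glyma.12G121700.1 with 5.74 and 6.17 scaled RPKM at EH50, against 1.18 and 1.36 at EH25 (2.03 ± 0.33 (SE), adjusted p = 0.0213), Glyma.03G077900.1 with a log2 fold change of 1.57 and Glyma.01G112600.1 with 1.54. In the full laccase list 15 of 59 genes were tested, with 5 that rose, 1 that fell and a median of 0.90. Of the 15, 3 passed the filter on low values only through EH50, and the median includes them. The other laccases that rose were of the LAC11 type, which also acts in lignification, Glyma.11G069500.1 with 3.95 and 3.21 scaled RPKM at EH50, against 1.43 and 1.19 at EH25 (1.29, adjusted p = 0.0337) and Glyma.01G173600.4 (4.19 and 3.0 scaled RPKM at EH50, against 1.40 and 1.16 at EH25, 1.32, adjusted p = 0.05). The one that fell, Glyma.11G236800.1 of the LAC14 type, had 0.7 and 1.12 scaled RPKM at EH50, against 5.06 and 8.48 at EH25 (-2.58 ± 0.36 (SE), adjusted p = 0.0139). The laccases of the hilum region therefore moved in both directions.

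The 8 tested cellulose synthases of the secondary wall (CESA4, CESA7 and CESA8 types, which together form the complex that makes secondary wall cellulose) were all higher in both EH50 libraries than in both EH25 libraries, with a median log2 fold change of 0.92, but none was called. Their adjusted p ran over 0.0531 to 0.174, and all 8 are among the xylem markers counted above. The CESA4-type Glyma.09G051100.1 had 107 and 98.6 scaled RPKM at EH50, against 51.2 and 45.3 at EH25 (1.09, adjusted p = 0.0587). The CESA7-type Glyma.06G225500.2 had 95.9 and 91.9 scaled RPKM at EH50, against 53.6 and 40.0 at EH25 (1.02, adjusted p = 0.0602). In both genes the 4 libraries lined up by stage without an overlap.

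Some genes for the other polymers of the secondary wall rose. They are given here because their known roles match the markers, and were chosen after their values were seen. Their fold changes are therefore not comparable with those of the cellulose synthases, which are a whole list. Other members of their families are not given. The GAUT12 (IRX8) type makes part of the xylan chain. Its copies Glyma.12G214700.1 and Glyma.13G286900.1 had 3.92 and 3.01 scaled RPKM at EH50, against 0.803 and 0.856 at EH25, and 2.88 and 2.14 scaled RPKM at EH50, against 0.595 and 0.601 at EH25 (log2 fold changes 1.77 and 1.69). Both copies passed the filter on low values only through EH50. The TBL29 (ESK1) type puts acetyl groups on xylan, and Glyma.14G058500.1 had 20.8 and 17.6 scaled RPKM at EH50, against 8.16 and 7.46 at EH25 (1.27 ± 0.18 (SE), adjusted p = 0.015). Genes with a DUF579 domain, found in xylan methyltransferases, rose at Glyma.05G085700.1 (1.30), Glyma.17G169200.1 (1.27) and Glyma.04G255800.1 (1.32). The XYN1 type, a xylanase, rose at 3 genes, with 9.90 and 10.4 scaled RPKM at EH50, against 2.88 and 3.41 at EH25 for Glyma.14G091300.2 (1.62 ± 0.23 (SE), adjusted p = 0.015).

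Some genes for proteins that guide or anchor the secondary wall rose too, again chosen after their values were seen. Of these, the MAP70-5-type and FLA11-type genes passed the filter on low values only through EH50. The MAP70-5 type, a microtubule protein that places the wall thickenings of tracheary elements, rose at Glyma.09G013100.2 (2.07 and 2.14 scaled RPKM at EH50, against 0.586 and 0.548 at EH25) and Glyma.15G118000.1 (1.90 and 2.04 scaled RPKM at EH50, against 0.588 and 0.516 at EH25). The COBL4 (IRX6) type is needed for cellulose deposition, and Glyma.08G249800.1 had 11.01 and 10.5 scaled RPKM at EH50, against 5.44 and 4.73 at EH25 (1.05 ± 0.15 (SE), adjusted p = 0.0145). The TED7-type gene Glyma.14G122000.1, named for tracheary element differentiation, had 4.66 and 3.90 scaled RPKM at EH50, against 2.03 and 1.47 at EH25 (1.19 ± 0.23 (SE), adjusted p = 0.039). The FLA11-type gene Glyma.12G069300.1, a fasciclin-like arabinogalactan protein of secondary walls, stayed low with 1.71 and 1.53 scaled RPKM at EH50, against 0.554 and 0.389 at EH25 (1.38 ± 0.28 (SE), adjusted p = 0.0475), and it was the only 1 of 30 tested genes of its list that was called.

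The pathway that makes the monolignols, the building blocks of lignin, was split. Of 74 genes in the list of phenylpropanoid and monolignol synthesis 47 were tested, with a median log2 fold change of 0.66. In 29 of them both EH50 libraries were above both EH25 libraries and in 13 below. None rose by the 2-fold rule in replicate 2, and 5 fell. Called higher but under 2-fold in replicate 2 alone were an HCT-type acyltransferase, Glyma.07G021600.2 (13.5 and 11.5 scaled RPKM at EH50, against 5.98 and 5.47 at EH25, log2 fold change 1.09), and an OMT1-type methyltransferase, Glyma.04G227800.1 (34.9 and 33.5 scaled RPKM at EH50, against 17.1 and 17.9 at EH25, 0.96). Several dedicated lignin genes had larger differences and were not called. The CYP98A3-type Glyma.19G126000.1, a hydroxylase on the way to lignin, had 28.6 and 27.6 scaled RPKM at EH50, against 9.08 and 10.7 at EH25 (1.49, adjusted p = 0.0717), and the 4CL2-type ligase Glyma.13G095600.2 had 11.9 and 11.7 scaled RPKM at EH50, against 3.92 and 4.72 at EH25 (1.40, adjusted p = 0.0669). The 5 genes that fell were 4 of the OMT1 type and 1 of the 4CL3 type, the ligase that serves flavonoid synthesis.

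The strongest of these falls was in Glyma.20G176100.1, an OMT1-type gene with 27.8 and 35.1 scaled RPKM at EH50, against 147 and 276 at EH25 (-2.68 ± 0.35 (SE), adjusted p = 0.0111). The EH25 libraries differed from each other, yet both were over 4-fold above both EH50 libraries. The OMT1-type genes Glyma.10G215700.1, Glyma.07G048900.1 and Glyma.06G295700.1 fell by 2.29, 2.39 and 1.22 on the log2 scale. The OMT1 family of Arabidopsis methylates caffeic acid, which leads to lignin, and flavonols, and which of these the soybean copies act on is not given by the annotation. Other OMT1-type genes were as high or higher at EH50, for example Glyma.19G260700.1 with 84.5 and 86.2 scaled RPKM at EH50, against 64.4 and 77.6 at EH25 (not called, adjusted p = 0.537). The 4CL3-type Glyma.01G232400.1 had 9.34 and 9.40 scaled RPKM at EH50, against 24.1 and 28.3 at EH25 (-1.46 ± 0.25 (SE), adjusted p = 0.0285).

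**Figure D2:**
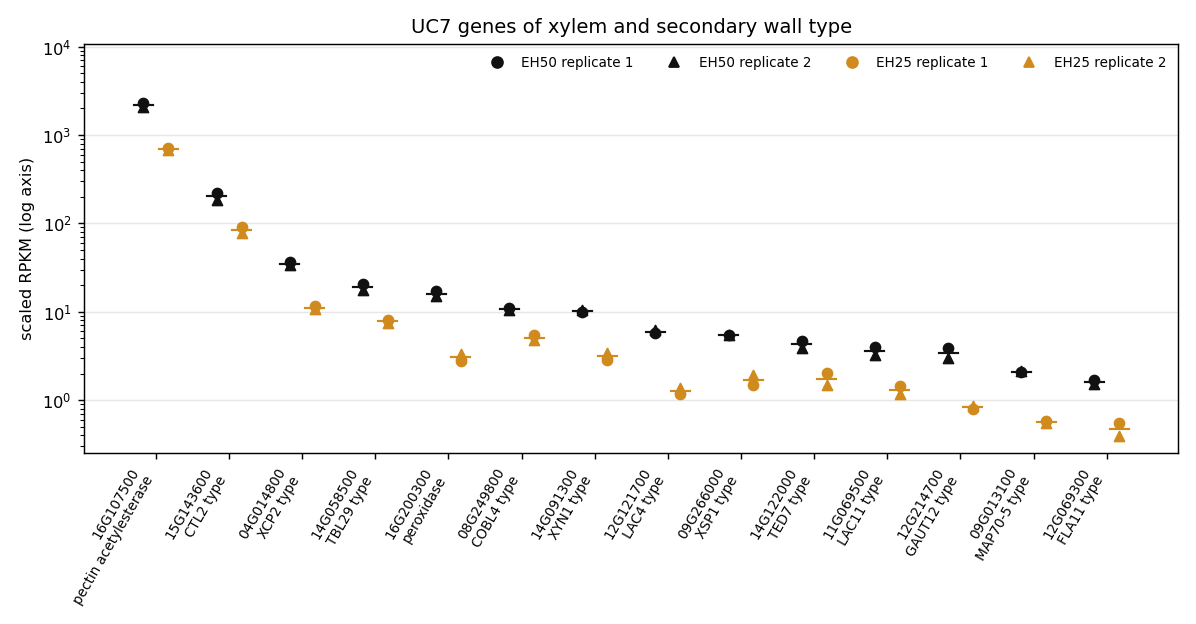
Scaled RPKM on a log axis of 14 genes of UC7 of xylem and secondary wall type that rose, with EH50 left of EH25 for each gene, circles for replicate 1, triangles for replicate 2 and lines for the mean. In each of the 14 genes both EH50 libraries lie above both EH25 libraries, at levels from 2314 for the pectin acetylesterase to under 2 for the FLA11-type gene.

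The most abundant transcript among those that rose was of a pectin acetylesterase, an enzyme that takes acetyl groups off pectin. Glyma.16G107500.1 had 2314 and 2089 scaled RPKM at EH50, against 708 and 669 at EH25 (1.68 ± 0.25 (SE), adjusted p = 0.0176). Among the 22 tested pectin acetylesterases it was the only one called, while 16 were higher in both EH50 libraries than in both EH25 libraries and none was lower, with a median of 0.49. The chitinase-like proteins of the CTL2 type, which act in the ordering of cellulose and not on chitin, rose at Glyma.15G143600.1 (220.4 and 185 scaled RPKM at EH50, against 91.2 and 77.6 at EH25, 1.26) and Glyma.09G038500.1 (177.01 and 157 scaled RPKM at EH50, against 88.8 and 66.5 at EH25, 1.11).

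Some of the most abundant genes that rose have no Arabidopsis hit. Glyma.10G094800.1 had 512 and 433 scaled RPKM at EH50, against 132.8 and 142 at EH25 (1.78, adjusted p = 0.0165). Glyma.02G180500.1 had 460.1 and 325 scaled RPKM at EH50, against 116 and 107 at EH25 (1.79, adjusted p = 0.0172), and Glyma.19G142700.1 had 249.9 and 170.6 scaled RPKM at EH50, against 83.6 and 61.7 at EH25 (1.52, adjusted p = 0.0187). All 3 lack a protein domain in the annotation, and no function is given for them. Glyma.08G138300.1, which carries a cellulase domain of glycosyl hydrolase family 5, had 169.03 and 152 scaled RPKM at EH50, against 54.6 and 63.3 at EH25 (1.44, adjusted p = 0.0214). Genes with no Arabidopsis hit made up 9 of the 99 that rose and 14 of the 211 that fell, beside 3.61% of all genes tested.

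The genes with the largest rises by fold included some of low level. An 11S seed storage globulin type, Glyma.03G163500.4, had 5.83 and 2.10 scaled RPKM at EH50, against 0.414 and 0.175 at EH25 (2.83 ± 0.42 (SE), adjusted p = 0.0161) and stood at 39.9 in the single EH100 library. This globulin gene passed the filter on low values only through EH50. It is one of the 27 tested markers of the embryo and cotyledon, of which 2 rose, 12 were higher in both EH50 libraries than in both EH25 libraries and none was lower. The other was a caleosin-type gene of oil bodies, Glyma.09G124200.1, with 2.93 and 2.96 scaled RPKM at EH50, against 1.34 and 1.10 at EH25 (1.13). The summed level of those markers also differed within EH25, and the part that embryo RNA has in these 2 genes was not tested. A class III peroxidase, Glyma.16G200300.1, had 17.1 and 15 scaled RPKM at EH50, against 2.78 and 3.37 at EH25 (2.30 ± 0.30 (SE), adjusted p = 0.0116). The PIP1;4-type aquaporin Glyma.18G198300.1, a water channel of the plasma membrane, had 16.5 and 14.1 scaled RPKM at EH50, against 3.25 and 2.98 at EH25 (2.20 ± 0.29 (SE), adjusted p = 0.0114), and was the only one of 43 tested aquaporins called. A thaumatin-type gene, Glyma.19G018400.1, had 11.9 and 8.90 scaled RPKM at EH50, against 2.52 and 1.79 at EH25 (2.15, adjusted p = 0.00532).

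Small secreted cupins and copper proteins formed another set of the largest rises. The GLP7-type germin Glyma.02G027000.1 had 4.46 and 3.37 scaled RPKM at EH50, against 0.747 and 0.639 at EH25 (2.13), and the cupins Glyma.08G226800.1 and Glyma.06G153800.1 had log2 fold changes of 2.15 and 1.97. The germin gene passed the filter on low values only through EH50. The cupredoxin Glyma.05G076700.1 had 29.5 and 24.2 scaled RPKM at EH50, against 5.71 and 6.57 at EH25 (2.08 ± 0.32 (SE), adjusted p = 0.0176). The cupins Glyma.11G143800.1 and Glyma.11G144300.1 rose in UC7 (log2 fold changes 1.48 and 1.44), and their log2 fold changes in UC413 were -0.42 and -0.40. They were chosen after their values were seen, and they were the 2 genes of the 99 that did not go the same way in UC413.

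A few genes of amino acid transport were called, in both directions. Of 143 genes of the MtN21/UmamiT family, some of which export amino acids in Arabidopsis seeds, 66 were tested, 4 rose and 33 were higher in both EH50 libraries than in both EH25 libraries, with a median of 0.44. Glyma.19G227900.1 had 57.1 and 70.8 scaled RPKM at EH50, against 25.8 and 31.0 at EH25 (1.16, adjusted p = 0.0394), and Glyma.19G227000.1 had nearly the same values, 55.4 and 67.7 scaled RPKM at EH50, against 25.5 and 29.7 at EH25, as near-identical copies that share reads would. Glyma.02G032500.1 had 9.17 and 10.1 scaled RPKM at EH50, against 5.36 and 4.20 at EH25 (0.98, adjusted p = 0.0178). Glyma.14G086300.2, with the domain of asparaginases, which free the nitrogen of asparagine, had 110.3 and 130.1 scaled RPKM at EH50, against 59.3 and 44.8 at EH25 (1.21 ± 0.18 (SE), adjusted p = 0.0169). The amino acid permease AAP2 type went the other way at Glyma.06G156600.1, with 0.453 and 0.338 scaled RPKM at EH50, against 1.61 and 1.78 at EH25 (-1.59, adjusted p = 0.0332). It was the only 1 of 62 tested permeases called, and it passed the filter on low values only through EH25. SWEET sugar exporters, sucrose transporters, sucrose synthases and invertases had no gene called in either direction.

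The largest falls were in 2 genes with the same Arabidopsis hit, both oxidoreductases of the glucose-methanol-choline (GMC) family. Glyma.05G050100.1 had 0.716 and 0.35 scaled RPKM at EH50, against 12.4 and 20.0 at EH25 (-4.39 ± 0.32 (SE), adjusted p = 0.00135), and Glyma.17G132100.2 had 0.731 and 0.495 scaled RPKM at EH50, against 12.8 and 19.8 at EH25 (-4.25 ± 0.29 (SE), adjusted p = 0.00135). In both genes every EH50 library stayed under 1 scaled RPKM, so both passed the filter on low values only through EH25. A pair of MATE carriers, which move small molecules out of the cytosol, fell as well. Glyma.17G247400.1 had 2.81 and 2.80 scaled RPKM at EH50, against 30.6 and 38.6 at EH25 (-3.50 ± 0.32 (SE), adjusted p = 0.0037), and Glyma.14G078000.1 had 0.661 and 0.572 scaled RPKM at EH50, against 8.98 and 8.55 at EH25 (-3.38, adjusted p = 0.00846). Glyma.04G079100.1, with no Arabidopsis hit, had 1.18 and 3.24 scaled RPKM at EH50, against 34.8 and 35.7 at EH25 (-3.99, adjusted p = 0.0108).

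Flavonoid genes were lower at EH50. Of 76 genes in the list of flavonoid and proanthocyanidin synthesis 38 were tested, with a median log2 fold change of -0.42. In 29 of the 38 both EH50 libraries were below both EH25 libraries, and in 3 above. By the full rule 6 fell and 1 rose. The TT12-type carrier Glyma.14G032400.1, which loads proanthocyanidin precursors into the vacuole, had 7.43 and 7.34 scaled RPKM at EH50, against 45.6 and 54.1 at EH25 (-2.71 ± 0.33 (SE), adjusted p = 0.00872). The UGT78D2-type glucosyltransferase Glyma.13G255800.1, which adds glucose to anthocyanidins and flavonols, had 2.22 and 2.19 scaled RPKM at EH50, against 10.7 and 12.4 at EH25 (-2.26 ± 0.17 (SE), adjusted p = 0.00135).

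The other 4 that fell encode steps along the pathway. Chalcone synthase, the first enzyme of the flavonoid branch, fell at Glyma.01G228700.1 (7.58 and 10.1 scaled RPKM at EH50, against 17.03 and 28.0 at EH25, -1.30) and Glyma.11G011500.1 (5.17 and 6.90 scaled RPKM at EH50, against 11.96 and 17.6 at EH25, -1.25). A flavonoid 3'-hydroxylase type, Glyma.07G039800.1, had 3.82 and 4.82 scaled RPKM at EH50, against 13.8 and 20.5 at EH25 (-1.91, adjusted p = 0.0111). A dihydroflavonol reductase type, Glyma.17G252200.2, had 19.4 and 23.5 scaled RPKM at EH50, against 44.1 and 64.7 at EH25 (-1.31, adjusted p = 0.0337). Chalcone isomerase family genes outside the list fell too, Glyma.06G143000.1 with 18.8 and 18.97 scaled RPKM at EH50, against 70.5 and 79.3 at EH25 (-1.97 ± 0.29 (SE), adjusted p = 0.0156) and Glyma.04G222400.1 with 20.8 and 20.6 scaled RPKM at EH50, against 55.4 and 64.1 at EH25 (-1.51 ± 0.23 (SE), adjusted p = 0.0177). The one gene of the list that rose was Glyma.13G203900.1, with 11.6 and 11.7 scaled RPKM at EH50, against 3.84 and 4.07 at EH25 (1.498 ± 0.16 (SE), adjusted p = 0.00532). Its type, BEN1, belongs to the dihydroflavonol reductase family and is known for brassinosteroid metabolism and not for flavonoids.

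The most abundant flavonoid genes were lower at EH50 without a call. The F3H-type Glyma.02G048400.3, a hydroxylase in the middle of the pathway, had 391 and 478 scaled RPKM at EH50, against 645 and 1038 at EH25 (-0.92, adjusted p = 0.173). The ANS-type Glyma.11G027700.1, which makes anthocyanidins, had 161 and 190.0 scaled RPKM at EH50, against 322 and 430.5 at EH25 (-1.09, adjusted p = 0.133). The BAN-type Glyma.08G062000.1, the reductase that starts proanthocyanidins, had 112 and 134.1 scaled RPKM at EH50, against 187 and 331 at EH25 (-1.02, adjusted p = 0.204). For the gene of the T locus, the flavonoid 3'-hydroxylase Glyma.06G202300.1, the values were 113 and 114 scaled RPKM at EH50, against 137 and 182 at EH25 (-0.48, adjusted p = 0.255). In each of these 4 genes the EH25 libraries spread more widely than the EH50 libraries on the RPKM scale, with replicate 2 the higher.

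Regulators of the flavonoid pathway were among 6 MYB genes that fell, out of 86 tested with a median of -0.019. The MYB12-type Glyma.13G109100.1, an activator of flavonol synthesis, had 2.52 and 2.68 scaled RPKM at EH50, against 13.99 and 13.99 at EH25 (-2.32 ± 0.34 (SE), adjusted p = 0.0154). The MYB5-type Glyma.17G143600.1, a regulator of proanthocyanidins and of the outer seed coat, had 0.726 and 1.24 scaled RPKM at EH50, against 4.45 and 4.48 at EH25 (-1.97 ± 0.28 (SE), adjusted p = 0.0154). The other 4 were of the MYB16 (MIXTA) type, which shapes epidermal cells and their cuticle. Glyma.19G024700.1 had 3.19 and 2.96 scaled RPKM at EH50, against 9.70 and 11.2 at EH25 (-1.68 ± 0.17 (SE), adjusted p = 0.00532), and Glyma.18G261400.2 had 1.61 and 1.60 scaled RPKM at EH50, against 4.87 and 4.84 at EH25 (-1.46 ± 0.22 (SE), adjusted p = 0.0181). Glyma.13G061900.1 and Glyma.13G287800.1 were lower in level and fell by 2.01 and 1.69 on the log2 scale.

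Other genes of the epidermis fell beside them. The list of cutin, suberin and wax synthesis had 40 of 100 genes tested, of which 7 fell, none was called higher and the median was -0.24. Of the 40, 3 passed the filter on low values only through EH25, among them the CYP86A8-type and LACS1-type genes given here. The CYP86A8-type Glyma.03G008100.1, which hydroxylates fatty acids for cutin, had 0.849 and 0.843 scaled RPKM at EH50, against 4.24 and 5.05 at EH25 (-2.15 ± 0.17 (SE), adjusted p = 0.00181). The GPAT6-type acyltransferase Glyma.07G146800.1, which joins cutin monomers to glycerol, had 2.71 and 2.49 scaled RPKM at EH50, against 6.79 and 8.07 at EH25 (-1.43 ± 0.15 (SE), adjusted p = 0.00534), and Glyma.06G255600.1 and Glyma.U025100.1 of the same type had log2 fold changes of -1.10 and -1.18. The LACS1-type Glyma.02G010300.6, which activates fatty acids for wax and cutin, had 0.759 and 0.844 scaled RPKM at EH50, against 2.32 and 2.30 at EH25 (-1.28, adjusted p = 0.0164). The ketoacyl-CoA synthases of wax chains (KCS types) and LACS2-type genes in the list were not called, so the fall did not take in the whole list.

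In the homeobox list 3 of 128 tested genes fell and none was called higher. The ANL2 types Glyma.10G238100.2 (1.48 and 1.35 scaled RPKM at EH50, against 3.70 and 4.11 at EH25, -1.32) and Glyma.20G156500.2 (1.47 and 1.18 scaled RPKM at EH50, against 3.17 and 3.36 at EH25, -1.17) belong to the homeodomain class that sets the identity of the outer cell layer. The HAT14-type Glyma.19G149000.2 had 0.448 and 0.538 scaled RPKM at EH50, against 3.85 and 3.51 at EH25 (-2.40 ± 0.25 (SE), adjusted p = 0.00532). It passed the filter on low values only through EH25. Chosen after their values were seen, the HDG2-type Glyma.15G220200.1 of the same outer layer class had 1.77 and 2.23 scaled RPKM at EH50, against 5.64 and 4.91 at EH25 (-1.30), and PDF1 (protodermal factor), Glyma.02G287400.1, a proline-rich protein of the epidermis, had 9.49 and 12.99 scaled RPKM at EH50, against 32.1 and 39.2 at EH25 (-1.65 ± 0.26 (SE), adjusted p = 0.0204). The receptor kinases of the CRINKLY4 family, ACR4-type Glyma.11G127700.1 and CCR3-type Glyma.18G026800.1, had log2 fold changes of -1.14 and -2.09, and ACR4 is known for its role in the epidermis and seed surface.

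Several single genes of growth receptors and hormones fell, and they were chosen after their values were seen. None of the 90 tested Aux/IAA and auxin response factor genes, 25 SAUR genes, 14 GH3 genes, 10 gibberellin oxidases, 7 genes of cytokinin synthesis and breakdown and 31 genes of ethylene signalling was called, and the medians of these lists ran over -0.15 to 0.64. ERECTA and its relative ERL1 are receptor kinases that promote organ growth and space the stomata. The ERECTA-type Glyma.17G226100.2 had 2.33 and 2.12 scaled RPKM at EH50, against 8.89 and 10.97 at EH25 (-2.03 ± 0.23 (SE), adjusted p = 0.00663), and Glyma.14G098600.1 had 2.31 and 2.54 scaled RPKM at EH50, against 5.77 and 6.97 at EH25 (-1.30 ± 0.20 (SE), adjusted p = 0.0182). The ERL1-type Glyma.16G203300.3 had 0.17 and 0.149 scaled RPKM at EH50, against 1.96 and 4.20 at EH25 (-2.94) and Glyma.09G152400.2 had 0.252 and 0.217 scaled RPKM at EH50, against 1.69 and 3.0 at EH25 (-2.37). Brassinosteroid synthesis was represented by the BR6OX2-type Glyma.18G272300.1 (-1.77) and the ROT3-type Glyma.01G170000.1 (-2.27), auxin efflux by the PIN4-type Glyma.07G164600.1 with 0.884 and 1.03 scaled RPKM at EH50, against 3.83 and 4.06 at EH25 (-1.80, adjusted p = 0.0456), and peptide signals by the CLE16-type Glyma.20G017800.1 with 0.424 and 0.388 scaled RPKM at EH50, against 2.87 and 2.85 at EH25 (-2.25, adjusted p = 0.0114). The FPF1-type Glyma.07G248400.1, named for the promotion of flowering, had 0.181 and 0.304 scaled RPKM at EH50, against 3.10 and 3.52 at EH25 (-2.86 ± 0.26 (SE), adjusted p = 0.00337). Among cyclins, the CYCD6;1-type Glyma.12G199300.1 was the only 1 of 31 tested that fell, at 0.427 and 0.419 scaled RPKM at EH50, against 1.58 and 1.83 at EH25 (-1.54, adjusted p = 0.0319). The ERL1-type, CLE16-type, FPF1-type and CYCD6;1-type genes passed the filter on low values only through EH25.

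Proteins that loosen the primary wall fell in single members of large families, while some other wall genes were called higher. The EXPB3-type expansin Glyma.12G203600.1 had 0.447 and 0.287 scaled RPKM at EH50, against 5.58 and 5.73 at EH25 (-3.27 ± 0.31 (SE), adjusted p = 0.00464), while the 36 tested expansins had a median of -0.069. The XTH9-type Glyma.12G101800.1, which cuts and joins xyloglucan, had 1.97 and 2.12 scaled RPKM at EH50, against 5.75 and 8.94 at EH25 (-1.69, adjusted p = 0.0209). Of 41 tested XTH genes it was the only 1 called lower, and 1 was called higher. The pectin methylesterase type Glyma.15G184300.1, the only 1 of 24 tested that was called, had 0.246 and 0.264 scaled RPKM at EH50, against 1.89 and 3.61 at EH25 (-2.51, adjusted p = 0.00663). This gene and the EXPB3 type passed the filter on low values only through EH25. Of 12 tested GH9 cellulases 3 were called higher, though under 2-fold in replicate 2 alone, and none lower. Of 12 tested pectate lyases 1 rose and none was called lower. Of the 40 tested class III peroxidases, 2 rose and 4 fell, with a median of 0.096. Those that fell included Glyma.18G055300.1 with 9.45 and 12.7 scaled RPKM at EH50, against 35.5 and 48.1 at EH25 (-1.89, adjusted p = 0.00742) and Glyma.07G263000.1 with 7.21 and 7.67 scaled RPKM at EH50, against 24.4 and 30.9 at EH25 (-1.85, adjusted p = 0.0145).

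Small secreted and stress-type proteins included the most abundant transcript that fell. Bet v 1 family genes of the MLP423 type were Glyma.02G032300.1 with 140.2 and 173.9 scaled RPKM at EH50, against 407 and 605 at EH25 (-1.67 ± 0.28 (SE), adjusted p = 0.0259) and Glyma.01G034000.1 with 42.2 and 54.0 scaled RPKM at EH50, against 159 and 189 at EH25 (-1.86 ± 0.32 (SE), adjusted p = 0.0286). GASA genes, which encode short cysteine-rich peptides induced by gibberellin, had 4 of 26 tested members that fell and none called higher. Glyma.03G131700.1 had 7.11 and 13.01 scaled RPKM at EH50, against 26.7 and 61.9 at EH25 (-2.05 ± 0.40 (SE), adjusted p = 0.0428), and Glyma.19G013000.2 had 1.86 and 2.03 scaled RPKM at EH50, against 23.1 and 19.5 at EH25 (-3.29 ± 0.34 (SE), adjusted p = 0.00532). The first of these had EH25 libraries that differed by more than 2-fold. The ENODL1-type early nodulin Glyma.12G225500.1 had 21.1 and 21.3 scaled RPKM at EH50, against 68.4 and 55.6 at EH25 (-1.53), and Glyma.13G215100.1, with no Arabidopsis hit, had 8.74 and 8.54 scaled RPKM at EH50, against 64.0 and 62.8 at EH25 (-2.84 ± 0.38 (SE), adjusted p = 0.0118).

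**Figure D3:**
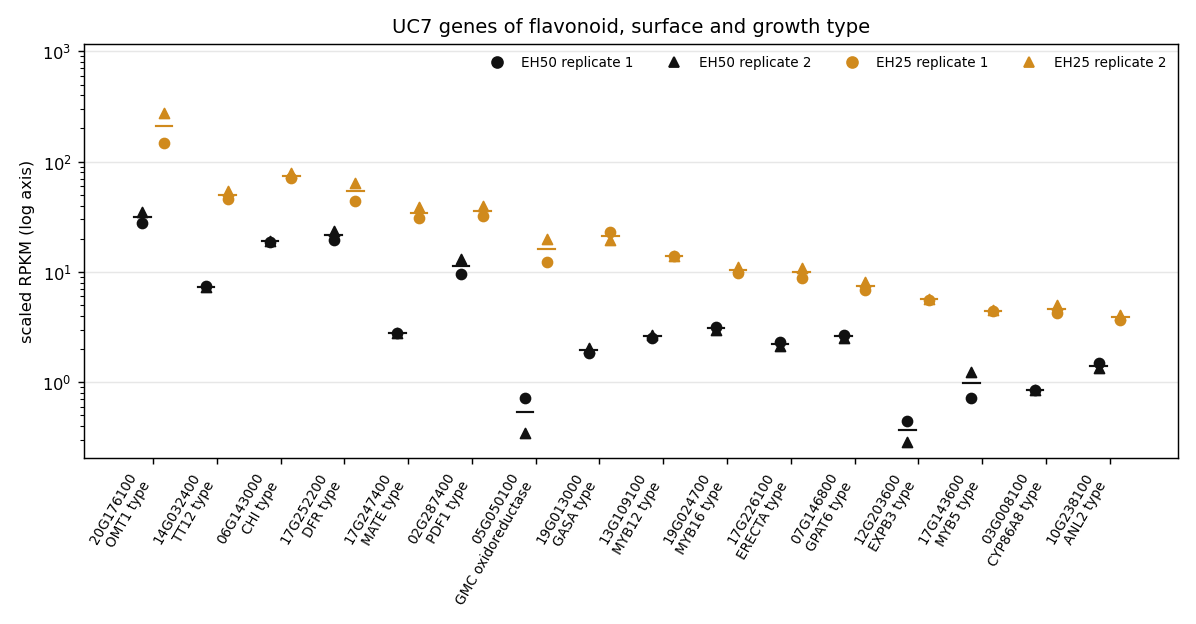
Scaled RPKM on a log axis of 16 genes of UC7 of flavonoid, surface and growth type that fell, with EH50 left of EH25 for each gene, circles for replicate 1, triangles for replicate 2 and lines for the mean. In each of the 16 genes both EH50 libraries lie below both EH25 libraries, and the OMT1-type gene has the highest EH25 level, 276 scaled RPKM.

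**Figure D4:**
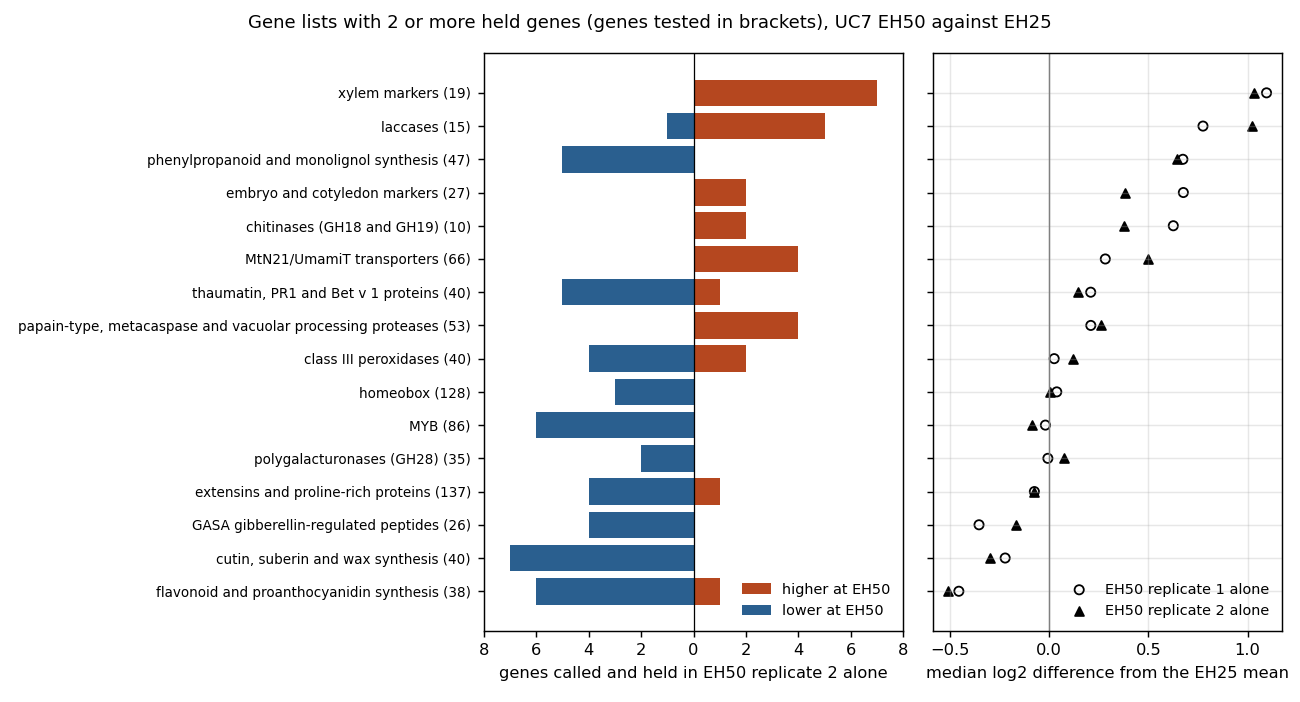
Gene lists in which at least 2 genes rose or fell, with the number tested in brackets. Bars on the left count the genes that rose or fell at EH50, and points on the right give the median log2 difference of each EH50 library alone from the EH25 mean over all tested genes of the list. Xylem markers and laccases have the highest medians, and both EH50 libraries put the flavonoid list below 0. Some xylem markers and laccases passed the filter on low values only through EH50.

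The same interval in the minute hilum isoline was compared through its own libraries. UC413 shares no library with the UC7 comparison, but its EH50 replicate 1 was also made with the non-stranded kit, and it shares the estimate of spread in the fit. In UC413, 615 of the 28658 genes (2.15%) were called higher at EH50 and 958 (3.34%) lower. Of the 99 genes that rose in UC7, 97 had a log2 fold change above 0 in UC413 and 80 were called there, and of the 211 that fell, 209 were below 0 and 196 were called. Over all genes tested, 72.4% had the same direction in both isolines. The UC413 groups did not overlap, in the direction of UC7, for 96 of the genes that rose and 208 of those that fell, beside 44.5% of all genes tested. The median log2 fold change was 1.54 in UC413 beside 1.44 in UC7 for the genes that rose, and -1.999 beside -1.68 for those that fell. The kit layout is common to both isolines, and its part in this likeness was not tested.

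The difference between the isolines in the EH50 to EH25 change was tested for each model, and no model passed the adjusted p in either direction by limma, while 1599 of 52426 models (3.05%) had an unadjusted p under 0.05. Among the 211 genes that fell, 57 had an unadjusted p under 0.05, 51 of them with the deeper fall in UC413. Among the 99 that rose, 10 did. Both sets were chosen in the same fit, by the UC7 values and the spread that also enter this p. Their counts therefore cannot be set against the share over all models. The genes that follow were chosen after their values were seen. The TT12-type Glyma.14G032400.1 had a log2 fold change of -2.71 in UC7 and -4.55 in UC413 (difference 1.84 ± 0.47 (SE), unadjusted p = 0.003, adjusted p = 1). The MLP423-type Glyma.02G032300.1 had -1.67 in UC7 and -4.29 in UC413 (difference 2.62 ± 0.40 (SE), unadjusted p = 6.68e-05, adjusted p = 0.308). The BAN-type Glyma.08G062000.1, not called in UC7, had 6.49 and 10.6 scaled RPKM at UC413 EH50, against 188 and 127 at UC413 EH25 (difference 3.16 ± 0.46 (SE), unadjusted p = 4.27e-05, adjusted p = 0.308). As lists, the 38 flavonoid genes had medians of -0.42 in UC7 and -0.92 in UC413, the 19 xylem markers 1.03 in UC7 and 1.05 in UC413, and the 15 laccases 0.90 in UC7 and 0.21 in UC413. The isolines were not tested against each other over lists, and the filter on low values used UC7 libraries only.

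Over the 4 stages of the UC7 hilum region, the median level of the 99 genes that rose was 0.772 scaled RPKM at EH10, 2.03 at EH25, 6.60 at EH50 and 7.06 at EH100. For the 211 that fell it was 5.42, 3.96, 0.870 and 0.347 at the same stages. These genes were chosen on EH25 and EH50, so only EH10 and the single, non-stranded EH100 library add to the description. The pectin acetylesterase Glyma.16G107500.1 had 272 and 252 at EH10 and 1833 at EH100. The XCP2-type Glyma.04G014800.1 had 4.98 and 3.41 at EH10 and 18.7 at EH100, below both EH50 libraries. The TT12-type Glyma.14G032400.1 had 57.3 and 119 at EH10 and 0.704 at EH100.

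Whole seed coats of UC7 gave single libraries at the same seed weights, so their differences have no test. The genes that rose in the hilum region stood lower in whole seed coats, with medians of 0.403, 0.871 and 1.60 scaled RPKM at WS10, WS25 and WS50. Of the 99, 97 were higher at WS50 than at WS25, by a median of 0.86 on the log2 scale, where 63.9% of all genes tested kept their direction. In UC413 whole seed coats 75 of the 99 were higher at WS50 than at WS25, by a median of 0.61. The genes that fell did not move together there. Their medians in UC7 were 5.99, 5.31 and 4.84 at WS10, WS25 and WS50, and 120 of the 211 were lower at WS50 than at WS25, with a median difference of -0.083 on the log2 scale beside 0.0078 over all genes. In UC413 whole seed coats the same 211 genes had medians of 6.18, 7.29 and 1.54, and all 211 were lower at WS50 than at WS25, by a median of -1.87. The DFR-type Glyma.17G252200.2, for example, had 60.5 at WS50 and 47.3 at WS25 in UC7, and 16.5 at WS50 and 75.2 at WS25 in UC413. No share over all genes is given for the UC413 whole seed coats, so how far their counts stand from it is not known. WS50 was non-stranded and WS25 stranded in both isolines, and with 1 library each the isoline and the single dissection cannot be told apart. UC7 WS25 also had a raised sum of small heat shock proteins (chaperones made under heat). It was 656 scaled RPKM, beside 95.0 in UC7 WS10 and 90.1 in UC7 WS50.

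**Figure D5:**
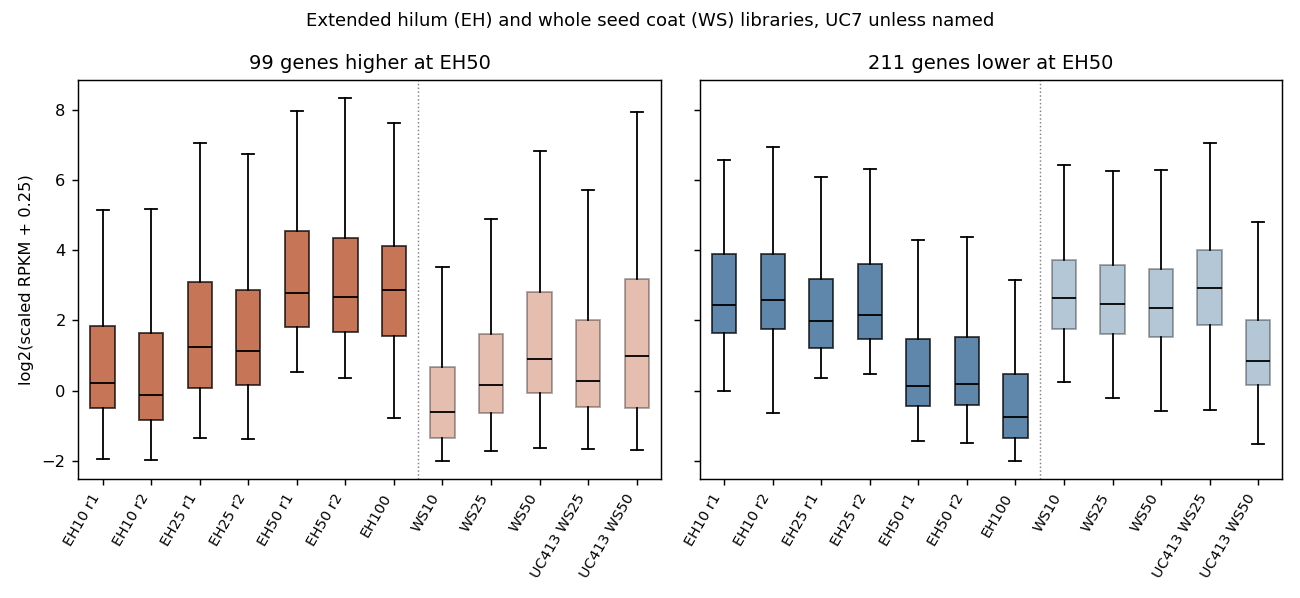
Boxes give the median and quartiles over genes of log2(scaled RPKM + 0.25) in each library, for the 99 genes that rose on the left and the 211 that fell on the right, with whiskers to 1.5 times the quartile range. Extended hilum libraries of UC7 run by stage up to the dotted line, followed by the whole seed coats of UC7 and WS25 and WS50 of UC413. The median of the genes that fell drops in the EH50 and EH100 libraries and in UC413 WS50, and is 4.84 scaled RPKM in UC7 WS50.

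Genes that the study singles out for wall proteins, seed size and ethylene were not called between these stages of UC7. SbPRP3, Glyma.11G154900.1, a proline-rich wall protein, had 1207 and 870.3 scaled RPKM at EH50, against 633 and 509 at EH25 (0.85 ± 0.27 (SE), adjusted p = 0.207), at a level among the highest described here. SbPRP2, Glyma.09G093000.1, had 22.8 and 18.3 scaled RPKM at EH50, against 70.8 and 1.55 at EH25 (0.87, adjusted p = 0.788), so its EH25 libraries lay on both sides of the EH50 libraries. The CYP78A6 types, which promote seed growth in Arabidopsis, had 10.4 and 11.2 scaled RPKM at EH50, against 22.3 and 10.0 at EH25 for Glyma.16G021200.1 and 1.31 and 3.19 scaled RPKM at EH50, against 9.03 and 3.19 at EH25 for Glyma.07G052300.1, with groups that overlapped. The extensin-type Glyma.04G179500.1 had 7.64 and 4.79 scaled RPKM at EH50, against 4.25 and 6.21 at EH25 and overlapped as well. The ACC oxidases of ethylene synthesis, Glyma.09G008400.1 and Glyma.15G112700.1, stayed at or under 0.135 scaled RPKM in all 4 UC7 libraries and were not tested.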

How the data were processed

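The authors aligned single reads with Bowtie to 88647 Glyma models (Wm82.a2), allowing up to 3 mismatches and 25 alignments per read, and deposited RPKM for each library, without pooling replicates. RPKM multiplied by model length came out as whole multiples of 1 step for 100% of models (tolerance 0.01), which gave the alignments per library. The library kits are those listed by the study. The 132 models of the rDNA region (Glyma.13G011200 to Glyma.13G024300) and 191 models with a plastid or mitochondrial Arabidopsis hit were left out. They held 3.80% and 16.1% (rDNA) of alignments at EH50, against 11.0% and 20.6% at EH25. RPKM was divided by median-of-ratios size factors from 73851 models. The log2 of this value plus 0.25 was modelled by limma 3.58.1 (R 4.3.3, trended prior, 6 groups, 12 libraries), and the tables were handled with the R package data.table (1.17.8), Python 3.11.15, pandas 2.3.3 and numpy 2.4.6. Models with at least 1 scaled RPKM in 2 of the 4 libraries were tested (52426 models), with Benjamini-Hochberg adjustment over all of them. Fold changes are on the log2(scaled RPKM + 0.25) scale and understate those of low genes. Because the deposited values are RPKM, the count test of the authors was not repeated, and voom on the recovered alignments was an alternative. The code was tested on simulated data. Named genes are the 10 largest rises and falls, the 8 most abundant of each, up to 3 of each per gene list, and genes named by the study. Genes outside these rules are also given, among them some that were not called. Not all of these are marked in the text as chosen after their values were seen. The comparison, its genes and its gene lists were chosen with earlier results of these data known. Alternatives covered scaling, pseudocount, low-value filter, samples in the fit, kit, replicate block, prior, voom and leaving out each library.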

Additional observations from a re-analysis of the deposited data

Results flagged for a closer look

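SbPRP3, Glyma.11G154900.1, was picked out because all libraries of the isolines moved in opposite directions. In UC7 it had 1207 and 870.3 scaled RPKM at EH50, against 633 and 509 at EH25, and in UC413 244 and 249 scaled RPKM at UC413 EH50, against 428 and 274 at UC413 EH25. The log2 fold change was 0.85 in UC7 and -0.47 in UC413, a difference of 1.33 (SE 0.385, unadjusted p = 0.0064 by limma). The adjusted p of that difference was 1.0 over all models, so it failed the correction.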

How the results depend on the processing

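Of 52426 models, 244 were called higher and 422 lower. RPKM as deposited gave 161 and 227, 1 model per gene 146 and 233, the 6 UC7 libraries alone 59 and 194, the 8 libraries of EH25 and EH50 alone 16 and 60, the 4 UC7 libraries alone 0 and 19 and the kit as a covariate 6 and 71, and a filter at 2 RPKM gave 276 lower. Leaving out 1 library gave 1 to 358 higher, with the lowest without UC7 EH50 replicate 1, and 14 to 852 lower, with the highest without UC7 EH25 replicate 2. The 99 genes that rose became 63 with the filter at 2, 42 with the 6 UC7 libraries, 12 with the 8 libraries, 0 with the 4 libraries and 5 with the kit, and 0 to 204 over the left-out libraries, with 65 without UC413 EH50 replicate 1. The 211 that fell became 63.0% as many with the 6 UC7 libraries, 44 with the 8 libraries, 14 with the 4 libraries and 51 with the kit, and 12 to 450 over the left-out libraries. Without EH50 replicate 2, with the 2-fold rule set on replicate 1, 12 rose and 42 fell. The fits with 8 libraries, those without a UC413 library for the UC7 counts, and the 6 libraries for the genes that rose or fell were chosen after seeing the data. The isoline difference had 4 models above 0 in the RPKM as deposited and up to 61 above 0 and 345 below 0 without UC7 EH25 replicate 2, and 0 to 0 in the other alternatives. Of the gene lists, 6 had at least 3 genes called higher and 9 at least 3 lower. With the kit these were 0 and 2, and over the left-out libraries 0 to 8 and 0 to 17. Kit and replicate 1 of EH50 cannot be told apart in UC7, and the non-stranded minus stranded EH50 difference correlated at 0.460 across models between the isolines. Same-numbered UC7 libraries share only a number (correlation of deviations 0.127), and the replicate block gave 214 higher, 395 lower, 91 that rose and 204 that fell. Directions reversed for Glyma.09G093000.1 (-1.78 to 3.52 over the left-out libraries, below 0 without UC7 EH25 replicate 2), Glyma.16G021200.1 (-1.03 to 0.11, above 0 without UC7 EH25 replicate 1) and Glyma.04G179500.1 (-0.099 to 0.55, and -0.035 without UC7 EH25 replicate 1), none of them called. With 2 libraries per stage and 3 alignments worth 0.0282 to 0.0315 scaled RPKM, genes under 1 in both stages were not assessed.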

Other observations

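Groups of genes that divide, capture light or answer heat are not part of the comparison above. The core histones, which package new DNA, had 76 tested genes with a median log2 fold change of -0.42 between UC7 EH50 and EH25, and in 41 of them both EH50 libraries were below both EH25 libraries, but none was called. Nuclear genes of the photosystems and light harvesting had 91 of 120 below in both EH50 libraries, a median of -0.41 and 1 gene called lower, while their median in UC413 was -0.13. Gibberellin oxidases had 10 tested genes. The 9 GA2ox types, which inactivate gibberellin, were higher in both EH50 libraries than in both EH25 libraries, and the GA3ox1 type, which activates it, was lower, with none called. The GA3ox1 type passed the filter on low values only through EH25, and 1 GA2ox type only through EH50. Over all genes tested, groups that did not overlap made up 23.1% higher and 19.9% lower at EH50. The GA2OX1-type Glyma.01G105200.1 had 199.9 and 188 scaled RPKM at EH50, against 138 and 84.5 at EH25, and the GA3OX1-type Glyma.13G361700.1 had 0.76 and 0.74 scaled RPKM at EH50, against 1.29 and 2.23 at EH25.

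Small heat shock proteins, chaperones made under heat, summed to 170.9 and 124.9 scaled RPKM over 31 tested genes at EH50, against 1712 and 173.1 at EH25. Of these 4 libraries EH25 replicate 1 held the high values. Outside them the sum was also raised in UC7 WS25 (656), UC7 EH10 replicate 2 (413.8) and UC413 EH10 replicate 2 (346.4). It was 79.1 to 163.5 in the remaining libraries of the series. The median log2 fold change of the 31 genes was -1.30 with no gene called. It was -0.13 without EH25 replicate 1 and -2.45 without EH25 replicate 2.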
